A study of Mus musculus with 24 samples.

Results

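Milk protein genes encode what the secretory alveolar cells of the mammary gland export into milk. The 8 genes described here were the caseins Csn1s1, Csn2, Csn1s2a, Csn1s2b and Csn3, the whey protein genes Wap and Lalba, and the mucin gene Glycam1. They were taken by name, and the array carried 12 probes whose annotated gene symbol was one of these 8, out of 55681 probes for 34797 named genes and transcripts. Csn1s2b and Wap had 2 probes each, Csn3 had 3, and the others had 1. RNA came from whole mammary tissue of female mice that were not labelled as pregnant or lactating, each hybridised in 1 colour to its own array.

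Mice of the inbred laboratory strain BALB/c and of SPRET/EiJ, whose founders were Mus spretus, a species apart from the house mouse, were either sham treated or given low-dose ionizing radiation (LDIR), a single whole-body X-ray dose of 10 cGy at 8 to 9 weeks of age. BALB/c tissue was collected 2, 4 and 8 weeks later and SPRET/EiJ tissue 4 weeks later, which gave 8 groups of 3 mice with replicate letters A, B and C. Neither strain carried an engineered allele according to the labels, and both were bought from the same supplier. Levels are given as log2 signal relative to the 75th percentile of the same array, so that 0 means a signal equal to that percentile and -3 a signal far below it. A level of one probe cannot be set against that of another probe, because probes differ in how brightly they hybridise.

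Milk protein genes are classical targets of prolactin, which acts through its receptor, the kinase Jak2 and the transcription factor Stat5a, together with glucocorticoids and the epithelial factor Elf5. In a virgin gland they are known to be low in most cells and to come up in part of the luminal epithelium with the ovarian cycle, and to reach full expression only in pregnancy and lactation. The stage of the ovarian cycle of each mouse was not given in the sources used here. Caseins carry calcium and phosphate as micelles, Csn3 (kappa-casein) stabilises the micelle, Wap is the main whey protein of rodents, and Lalba (alpha-lactalbumin) is the subunit that turns a galactosyltransferase into lactose synthase. Glycam1 has a further known source outside the milk-producing cell: the high endothelial venules of lymph nodes, where its glycosylated product binds L-selectin on lymphocytes.

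The 5 casein genes lie together on chromosome 5, and their 8 probes fell between positions 88111332 and 88361508 (mm9 coordinates of the array files). The Wap probes lay on chromosome 11, at 6535486 to 6535509 for the part that the files place and at 6536714 to 6536773. Those of Lalba (98310831 to 98310890) and Glycam1 (103393339 to 103393398) lay on chromosome 15. Exons and untranslated parts were not annotated in the files. The first 30 of the 60 bases are shown for the single Csn2 and Glycam1 probes, whose patterns over mice are contrasted below, and for the 3 Csn3 probes, whose readings differed from each other between strains.
Csn2, chromosome 5, 88121767 to 88121826, minus strand: ggactctatatgcttctcagttatattaca
Glycam1, chromosome 15, 103393339 to 103393398, minus strand: gaagaactgggtaaaataattgaaggattt
Csn3, chromosome 5, 88361449 to 88361508, plus strand, brightest probe: gcaattttcacagattcagatctttctcgt
Csn3, chromosome 5, 88361092 to 88361151, plus strand, middle probe: gcttttaatgaagcaatcagtgttcaatcg
Csn3, chromosome 5, 88359342 to 88359401, plus strand, the probe nearest to the 5′ end: aggaaacaggaaaaaacagttacgtagaat

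Promoter sequence from RefSeq (GRCm38.p6) matched 6 of the 8 genes, leaving Csn1s2b and Csn3 without one. The 250 bases before the transcription start are printed for the 3 caseins that varied together from mouse to mouse and for Glycam1, which did not vary with them over all mice. Capitals mark TTCNNNGAA, the motif bound by STAT5, searched on both strands.
Csn1s1, chr5:87665958-87666207, plus strand: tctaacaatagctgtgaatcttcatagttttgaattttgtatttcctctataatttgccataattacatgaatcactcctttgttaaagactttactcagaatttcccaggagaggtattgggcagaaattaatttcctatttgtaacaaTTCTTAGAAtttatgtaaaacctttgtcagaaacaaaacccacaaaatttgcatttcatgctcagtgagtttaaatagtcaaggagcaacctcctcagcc
Csn2, chr5:87699426-87699675, minus strand: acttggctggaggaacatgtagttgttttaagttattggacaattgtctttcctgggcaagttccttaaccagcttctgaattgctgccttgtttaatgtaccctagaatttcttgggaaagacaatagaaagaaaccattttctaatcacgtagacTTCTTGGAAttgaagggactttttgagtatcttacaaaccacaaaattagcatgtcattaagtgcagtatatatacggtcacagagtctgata
Csn1s2a, chr5:87774200-87774449, plus strand: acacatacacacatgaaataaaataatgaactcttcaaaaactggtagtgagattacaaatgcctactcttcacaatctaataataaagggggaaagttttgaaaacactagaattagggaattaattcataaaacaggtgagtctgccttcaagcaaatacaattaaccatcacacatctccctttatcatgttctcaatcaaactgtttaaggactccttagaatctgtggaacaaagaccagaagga
Glycam1, chr15:103565082-103565331, minus strand: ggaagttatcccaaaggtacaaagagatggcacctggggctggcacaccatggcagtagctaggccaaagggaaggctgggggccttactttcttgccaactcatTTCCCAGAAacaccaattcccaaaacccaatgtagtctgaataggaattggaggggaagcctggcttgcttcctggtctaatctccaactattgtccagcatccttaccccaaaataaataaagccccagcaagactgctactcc
The motif began 100 bases before the start of Csn1s1, 93 before Csn2 and 145 before Glycam1, and was found in none of the windows of Csn1s2a, Wap and Lalba. Of all 32851 RefSeq promoter windows of this length, 7.02% held it. TGTTCT, the core of the glucocorticoid receptor motif, searched on both strands and not overlapping the first motif here, was present in the window of Csn1s2a, 59 bases before the start, and in none of the other 5; it occurred in 16.1% of all windows. These are matches of letters, and no binding was measured.

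Several arrays stood apart before any gene was compared. The share of probes well above background ran from 57.1% (SPRET/EiJ LDIR C) to 72.6%. On 3 arrays, BALB/c sham 8 weeks A, BALB/c LDIR 8 weeks B and SPRET/EiJ LDIR 4 weeks A, the mean level of 8 lymphocyte markers was 3.45, 3.77 and 3.04, whereas it lay between -2.48 and -1.15 on the other 21. The mean of 5 skeletal muscle genes was between 0.77 and 5.32 on 7 arrays, all of BALB/c, among them all 3 sham mice of 8 weeks and BALB/c LDIR 8 weeks A and C, and between -4.63 and -0.08 on the other 17. The labelled tissue was borne out by its markers: all 8 luminal epithelial genes were above background on all 24 arrays, and the mean of 7 white adipocyte genes lay between 4.70 and 7.01. The luminal mean ranged from -0.34 to 2.01 in SPRET/EiJ and from 1.80 to 3.44 in BALB/c. In whole tissue, fewer cells of a type and less RNA per cell cannot be told apart. Between the strains, how well the probes match SPRET/EiJ transcripts may enter too, and was not analysed.

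Most milk protein genes differed widely between mice of the same group. The beta-casein gene Csn2 was above background on 13 of 24 arrays. It was highest in BALB/c sham 8 weeks B at 3.84, in SPRET/EiJ sham A at 3.51 and in BALB/c LDIR 8 weeks C at 1.56, and no other mouse exceeded -3.05. At 2 weeks the LDIR mice read -4.65, -4.69 and -7.59 and the sham mice -5.07, -7.51 and -7.45. At 4 weeks the BALB/c LDIR mice read -3.60, -7.73 and -3.18, while all 3 sham mice were below background at -7.80, -7.64 and -7.52.

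At 8 weeks the 3 sham mice of BALB/c lay far apart, with Csn2 at -6.67, 3.84 and -4.78. The corresponding LDIR mice read -3.63, -3.93 and 1.56. In SPRET/EiJ the sham mice read 3.51, -7.43 and -3.05 and the LDIR mice -5.59, -7.65 and -3.90. Sham and LDIR mice therefore overlapped in every pair of groups. Within the 8-week sham group the highest mouse was at least 372-fold above the lowest, and within the SPRET/EiJ sham group at least 508-fold. Such a bound is needed because the lowest mouse was not above background, and the bright level is set against whichever is higher on the dim array, the probe's own reading or the dimmest reading scored as above background.

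Csn1s1 and Csn1s2a were highest in the same 2 mice as Csn2. Csn1s1 (alpha-s1-casein), above background on 16 arrays, was at 4.21 in BALB/c sham 8 weeks B, at 3.27 in SPRET/EiJ sham A and at 1.46 in BALB/c LDIR 8 weeks C. The remaining 21 mice lay between -7.97 and -0.95. Csn1s2a, above background on 12 arrays, was at 3.91 in SPRET/EiJ sham A and at 0.67 in BALB/c sham 8 weeks B, and its next highest value was -1.75, in BALB/c LDIR 4 weeks A. SPRET/EiJ sham B was below background in Csn1s1 (-7.52), Csn2 (-7.43) and Csn1s2a (-7.65).

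Csn3 was above background in every mouse. Its median was 3.44, its lowest level 0.90 in SPRET/EiJ sham B and its highest 6.35 in SPRET/EiJ sham A, so the largest difference between mice of a group was again that within SPRET/EiJ sham, 43.4-fold. In BALB/c all 18 mice lay between 2.03 and 4.76. Lalba, also above background in every mouse, ranged from -1.49 in BALB/c sham 8 weeks C to 2.42 in SPRET/EiJ sham A, and all other mice were at or below 0.74. Csn1s2b varied least, from -3.90 to -2.15, or 3.37-fold over all 24 mice.

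Wap was above background on 9 arrays. Its highest levels were 0.38 in SPRET/EiJ sham A, -0.67 in BALB/c LDIR 4 weeks A, and -1.83 and -2.30 in the BALB/c LDIR 2 weeks mice B and A. BALB/c sham 8 weeks B, the mouse with the highest Csn2, read -4.25 for Wap, and BALB/c LDIR 8 weeks C, the third highest for Csn2, read -7.45 and was below background. Mice with high caseins therefore did not all have high Wap.

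**Figure D1:**
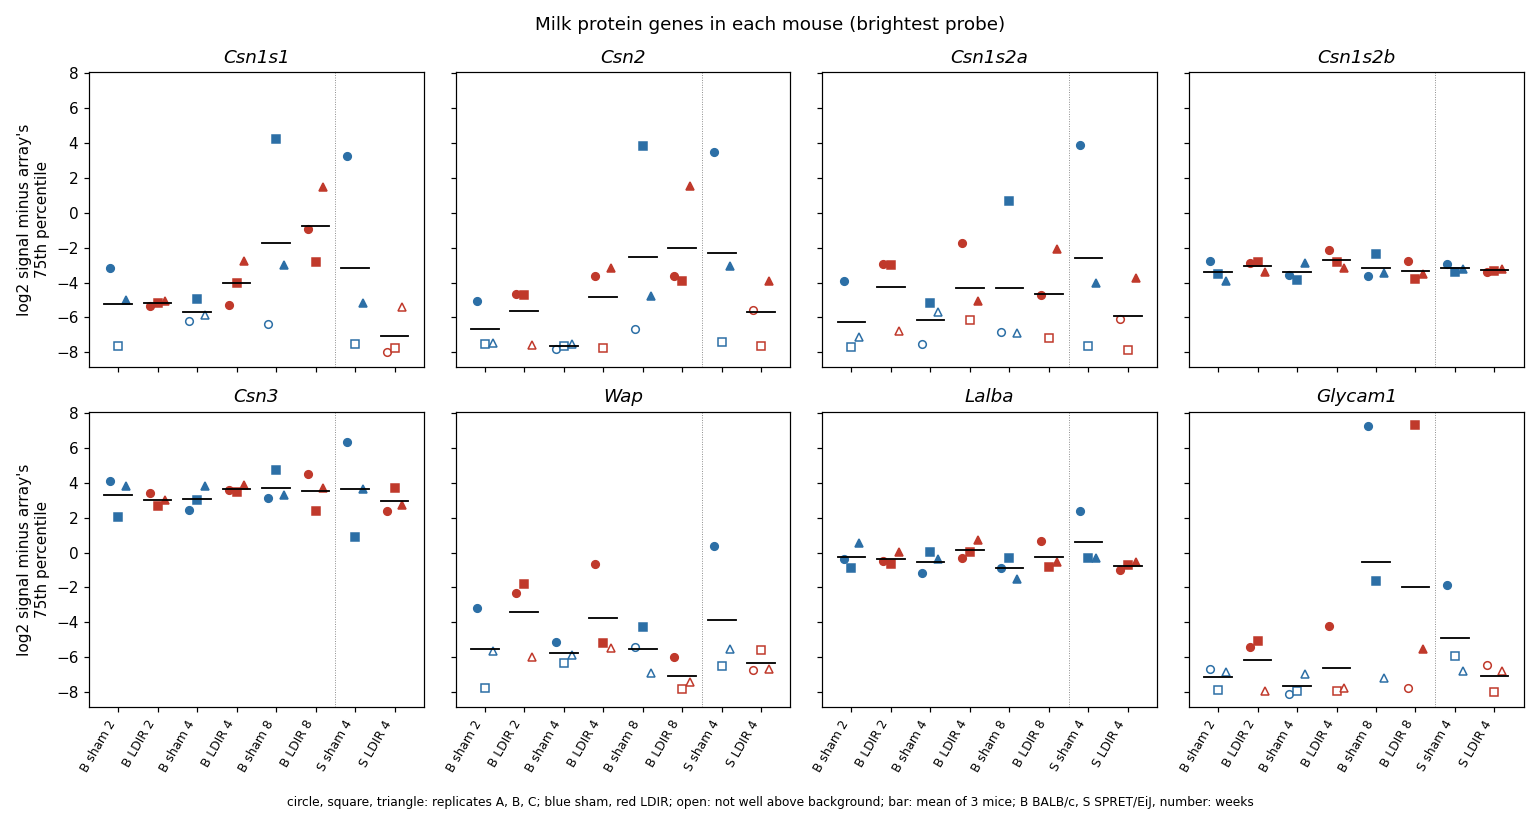
Level of each milk protein gene in each of the 24 mice (log2 signal minus the array's 75th percentile, y axis) by group (x axis: strain, treatment and weeks); each symbol is a mouse, open symbols are not well above background, and bars are means of 3 mice. For Csn2 the 3 mice above 0 are BALB/c sham 8 weeks B (3.84), SPRET/EiJ sham A (3.51) and BALB/c LDIR 8 weeks C (1.56), and Csn1s2b stays between -3.90 and -2.15 throughout.

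The spread between mice of a group was summarised as the SD around the group means, pooled over the 8 groups with 16 degrees of freedom. Among 38397 probes above background on at least 12 arrays, the median SD was 0.36 and the 99th percentile 1.42. Glycam1 had an SD of 4.10, Csn2 3.28, Csn1s2a 3.17 and Csn1s1 3.07, each at or above the 99.97th percentile of those probes. Wap followed with 2.10 (percentile 99.75), Csn3 with 1.21 (98.34) and Lalba with 0.78 (92.32), whereas Csn1s2b, with 0.47, was at percentile 67.66. Thus 7 of the 8 genes were above the 90th percentile.

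Luminal markers also varied between mice of a group, less than the 3 variable caseins and about as much as Lalba. The pooled SD of the keratin gene Krt8 was 0.89 (percentile 95.33), that of the adhesion gene Epcam 0.82 (93.62), and that of Krt18 0.73 (90.33). A spread as large as that of the variable caseins was not particular to milk protein genes. It was also found in the muscle genes Myh4 (4.39) and Ckm (3.50) and the lymphocyte gene Ms4a1 (3.12), though not in the lymphocyte genes Cd79a (0.65) and Cd4 (0.42). Wap and Glycam1 were above background on fewer than 12 arrays, and much of the low end of their range, as of the 3 variable caseins, is signal near background. With normexp background correction, which compresses such low signals, the SD of Csn2 was 1.99 (percentile 99.88) and that of Wap 0.88 (98.49). Mice within groups held between 61.6% (Csn1s1) and 92.0% (Csn3) of the sum of squares of each gene over the 24 arrays, with 64.0% for Csn2, against a median of 41.8% for the 38397 probes.

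**Figure D2:**
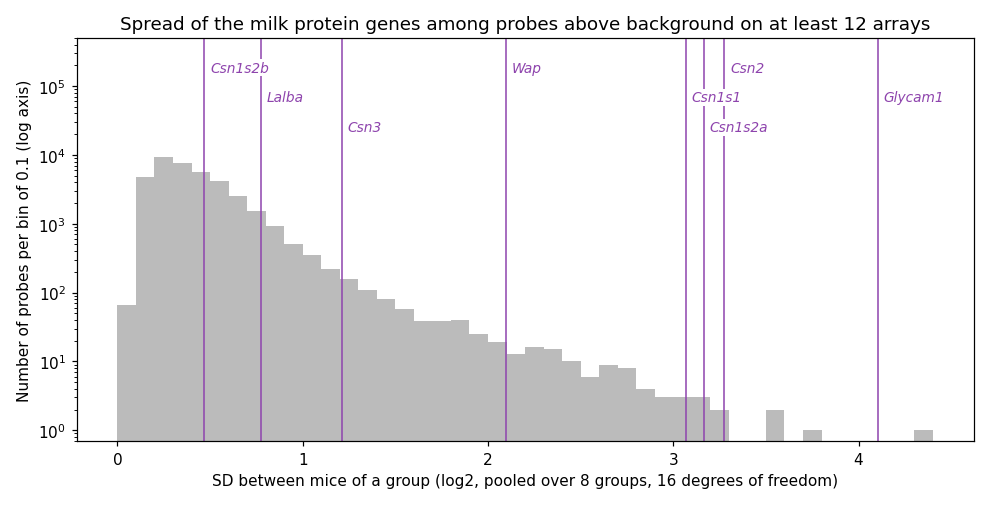
Histogram of the SD between mice of a group (x axis, log2, pooled over 8 groups) for 38397 probes above background on at least 12 arrays; the y axis counts probes per bin on a log axis, and vertical lines mark the brightest probe of each milk protein gene. Csn1s1, Csn1s2a, Csn2 and Glycam1 lie between 3.07 and 4.10, where few probes remain, and Csn1s2b (0.47) lies near the bulk.

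The genes were then compared for whether they rose and fell together from mouse to mouse, using deviations from the group means so that strain, treatment and time do not enter. Over the 24 arrays Csn2 went with Csn1s2a (Pearson's r = 0.93, Spearman's rho = 0.92) and with Csn1s1 (r = 0.89, rho = 0.71). The permutation p, from 100000 shuffles of arrays within groups, was 7e-05 for Csn1s2a and 0.00116 for Csn1s1 (0.00049 and 0.00406 after Benjamini-Hochberg adjustment over 7 relations; for rho, 0.00042 and 0.018). The values share an array and its scaling, and both come from neighbouring genes of the casein cluster. Without the 2 mice farthest out on Csn2, BALB/c sham 8 weeks B and SPRET/EiJ sham A, r remained 0.89 and 0.78.

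Csn2 was related more loosely to Csn3 (r = 0.66, permutation p = 0.0338, adjusted 0.0473), Wap (r = 0.59, p = 0.0252, adjusted 0.0473) and Csn1s2b (r = 0.52, p = 0.0307, adjusted 0.0473) by permutation. These rested in part on the same 2 mice, without which r was 0.49, 0.43 and 0.36, and by Spearman's rho (0.50, 0.52 and 0.52) the adjusted permutation p was 0.0752, 0.07 and 0.07. Lalba gave r = 0.48 and rho = 0.34 (permutation p = 0.174 and 0.206, adjusted 0.203 and 0.24), and r fell to 0.16 without the 2 mice. For Glycam1, r was -0.03 and rho 0.20 (permutation p = 0.946 and 0.493, and the same after adjustment).

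Glycam1 was high in other mice than the caseins. Its level was 7.28 in BALB/c sham 8 weeks A and 7.32 in BALB/c LDIR 8 weeks B, at least 11140-fold and 11455-fold above the lowest mouse of their groups. In the other 22 mice it was at most -1.65, and it was above background on 8 arrays in all. Those 2 arrays were among the 3 with high lymphocyte markers: Cd79b, which encodes part of the B cell receptor complex, was at 5.21 in the sham mouse and at 5.52 in the LDIR mouse.

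The lymph node list moved with it too. Of its 7 genes 6 were on the array, and their mean level was 2.45 and 2.66 in these mice and 1.59 in SPRET/EiJ LDIR A, against -3.52 to -1.38 on the other 21 arrays. Chst4, a sulfotransferase of high endothelial venules, was at 0.58 and 0.47 in the 2 BALB/c mice, at -1.06 in SPRET/EiJ LDIR A, and not above background on any other array. Madcam1, the addressin of mucosal venules, was at 1.70 and 1.87 in the 2 BALB/c mice, at -0.36 in SPRET/EiJ LDIR A, and at most -0.40 elsewhere. In SPRET/EiJ LDIR A, however, Glycam1 was at -6.47 and not above background. The part of lymph node tissue in these readings was not tested.

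On the other 21 arrays, of which 6 had it above background, Glycam1 went with several of the other genes. Its next highest levels were -1.65 in BALB/c sham 8 weeks B and -1.87 in SPRET/EiJ sham A, the 2 mice with the highest Csn2, and then -4.19 in BALB/c LDIR 4 weeks A. Leaving out the 3 arrays, a choice made after their values were seen, turned its correlation with Csn2 from -0.03 to 0.83, and it was 0.88 with Csn1s2a, 0.78 with Wap, 0.69 with Csn1s1, 0.61 with Csn1s2b, 0.50 with Csn3 and 0.41 with Lalba. The same step left r at 0.94 between Csn2 and Csn1s2a and at 0.87 between Csn2 and Csn1s1. These values carry no test, and they are not given without the 2 mice with the highest Csn2.

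The genes whose pattern was most like that of the milk protein genes were found by correlating 26210 other genes with the mean scaled deviation of the 6 members above background on at least 12 arrays. Ranked by Pearson's r over the 24 arrays, the leading 10 were Elf5 (0.89), Folr1 (0.88), Scnn1b (0.87), Aldoc (0.86), Cd14 (0.86), Ano1 (0.85), Lao1 (0.85), Atp6v1b1 (0.85), a transcript on chromosome 1 without a gene symbol (0.85) and Tfap2c (0.84). Elf5 encodes the ETS factor of luminal progenitor and alveolar cells, Folr1 a folate receptor, Scnn1b a subunit of the epithelial sodium channel and Tfap2c an AP-2 factor of epithelium. Elf5 was at 4.23 in BALB/c sham 8 weeks B and 3.16 in SPRET/EiJ sham A, the top 2 mice for Csn2, and at -0.91 in SPRET/EiJ sham B, where Csn1s1, Csn2 and Csn1s2a were below background. Its pooled SD was 1.05.

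**Figure D3:**
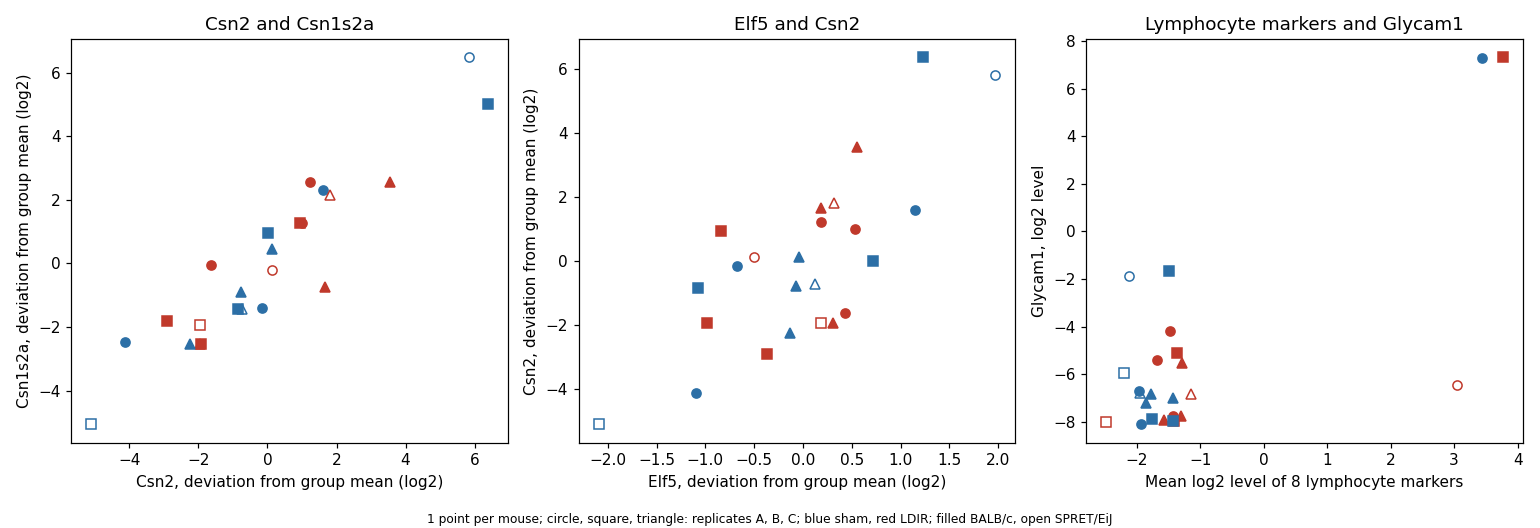
Each point is 1 of 24 mice: Csn2 against Csn1s2a and Elf5 against Csn2 as deviations from group means (log2, left and middle), and the mean log2 level of 8 lymphocyte markers against the Glycam1 level (right). Csn2 and Csn1s2a lie along a line (r = 0.93), while the 2 Glycam1 levels above 7 belong to arrays with lymphocyte means of 3.45 and 3.77 and the third array with high lymphocyte markers has Glycam1 at -6.47.

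Other lists showed which genes shared this pattern, given as the share of genes with r above 0.5 beside 3.81% of all 26210 genes (median r -0.03). Of 8 luminal epithelial markers 6 exceeded it (median r 0.67), led by Elf3 (0.77), Cldn3 (0.72), Epcam and Cdh1 (both 0.71). Of 7 basal markers 3 did: Krt5 (0.59), Krt14 (0.63) and the oxytocin receptor gene Oxtr (0.74). The remaining basal markers lay between -0.42 (Trp63) and 0.44 (Acta2). Among other milk and secreted proteins 6 of 11 did, including the mucin-like gene Muc15 and the transferrin gene Trf (both 0.80), Spp1 (osteopontin, 0.79), the lipocalin gene Lcn2 (0.76) and Ltf (lactoferrin, 0.64). Those of this list that did not lay between -0.40 (Pthlh) and 0.19 (Pigr). Most luminal markers thus moved with the milk protein genes, and the part of the amount of epithelium in their spread was not tested.

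In the milk fat list, 3 of 12 genes exceeded 0.5: Muc1 (0.80), the thioesterase gene Olah (0.75) and Mfge8 (0.62). Plin2, Xdh and Btn1a1, which coat the milk fat globule, had r of 0.36, 0.26 and 0.05. The ovarian hormone list had 4 of 9, with Gata3 at 0.77, Pgr (the progesterone receptor) at 0.57, Areg (amphiregulin) at 0.52 and Foxa1 at 0.50. Of the prolactin and STAT5 genes only Elf5 of 11 passed 0.5; the receptor gene Prlr had 0.45, Stat5a 0.25 and Cish, a feedback target of STAT5, 0.22. No adipocyte (7), lymphocyte (8), lymph node (5), muscle (4), epidermal (2) or erythrocyte (3) gene did. Genes that flank the caseins were mostly not above background: of 8 on the array only Smr2 was above background on at least 12 arrays (23), Odam was above background on 1, and the remaining 6 on 0 to 5.

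Against this spread, LDIR was compared with sham at each time, using limma's moderated test on the 6 arrays of each comparison over all probes. A call needed an unadjusted p under 0.05 and a change over 1.5-fold, and adjusted p-values are limma's with Benjamini-Hochberg adjustment over all probes. Sham mice of 4 weeks also enter the comparisons of strains and of collection times below, so these results are not independent of each other. In BALB/c at 4 weeks 2 of the 8 genes were called, both higher after LDIR, where 4.83% of all probes were called and 3.45% called higher. Csn2 was at -4.84 ± 2.51 (SD, n = 3) after LDIR and -7.65 ± 0.14 (SD, n = 3) in sham, a difference of 2.82 (standard error 1.16, limma adjusted p = 0.783). Since no sham array measured it, the fold was also taken with sham readings raised to the dimmest reading scored as above background. It was then 2.03, with LDIR B, itself below background, kept at its own reading. Csn1s1 was at -4.03 ± 1.27 (SD, n = 3) after LDIR, with mice at -5.30, -4.03 and -2.76, and at -5.68 ± 0.64 (SD, n = 3) in sham, with mice at -6.21, -4.97 and -5.86. Its difference was 1.65 (standard error 0.66, limma adjusted p = 0.783), and the 2 groups overlapped.

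All 8 genes had higher means after LDIR in this comparison (median difference 1.35, against 0.02 over all probes), but no adjusted p was under 0.05 for any probe of the array, where 3419 had an unadjusted p under 0.05. Several of the genes went together from mouse to mouse, so agreeing signs, here and below, are not 8 separate results. Both calls were marginal. Neither was made with quantile normalization or by the methods' t-test. With slide as a block, which rests on the single sham mouse that shared a slide with the LDIR mice, the differences were 2.68 for Csn2 (standard error 1.76) and 1.83 for Csn1s1 (standard error 1.01), and neither was called. Leaving out any 1 of the 6 mice lost at least 1 of the calls: Csn2 was still called without LDIR B (4.26), and Csn1s1 without sham B (2.01) or LDIR A (2.29). Without sham C, Csn1s2b (0.98) and Csn3 (0.91) were called in their place. Here and below, the share of all probes called with a mouse left out is not given. Of the lists, Cish (-1.10) and Socs3 (-0.63), both induced by cytokine signalling through STAT factors, were the 2 of 12 prolactin and STAT5 genes called, both lower. Also called lower were 1 of 8 luminal genes, Elf3 (-0.78), and 2 of 7 basal genes, the keratins Krt5 (-0.72) and Krt14 (-0.92). The median difference was -0.01 over the luminal list and -0.37 over the basal list. So were 1 of 13 milk fat genes, Cidea (-1.87), of the lipid droplet, and 1 of 7 adipocyte genes, Lipe (-0.61), the hormone-sensitive lipase. Over the array 767 of 55680 probes were called lower. The lactoperoxidase gene Lpo (0.75) was the only one of 11 other milk proteins called, and was higher.

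At the other times no milk protein gene passed the thresholds. At 2 weeks, where 3.11% of probes were called, 6 of 8 had higher means after LDIR, among them Csn1s2a (2.02, standard error 1.38, limma adjusted p = 0.893). The pattern at that time depended on LDIR mouse C, which was below background in Csn2, Csn1s2a, Wap and Glycam1, whereas mice A and B measured all 4. Without it those 4 genes were called (Csn2 2.01, Csn1s2a 3.28, Wap 3.46, Glycam1 1.87), whereas without sham A only Csn1s2b (0.69) and without sham B only Csn3 (-0.95) was. The share of all probes called in these fits is not given. At 8 weeks, with 1.81% of probes called, 3 of 8 had higher and 5 lower means after LDIR (median -0.20, against -0.14 over all probes). The differences of Csn1s1 (0.94, standard error 2.76), Csn2 (0.54, standard error 3.03) and Glycam1 (-1.46, standard error 5.18) were smaller than their errors. Wap differed by -1.54 (standard error 0.81), and without sham C it was called lower (-2.24). Leaving out both arrays with high lymphocyte markers left the count of called genes at 0.

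Over the 3 times together, with 9 BALB/c mice a side and time as a factor, all 8 means were higher after LDIR but none was called, against 1.08% of probes. Csn2 differed by 1.46 (standard error 1.22, limma adjusted p = 0.998), Csn1s2a by 1.17 (standard error 1.09) and Csn1s1 by 0.88 (standard error 1.07). The smallest differences were those of Csn3 (0.02, standard error 0.34) and Glycam1 (0.19, standard error 1.89). In 17 of the 18 fits with 1 mouse left out, the count stayed at 0. The exception left out BALB/c sham 8 weeks B, the mouse with the highest Csn2 of all. It called 3 genes at the unadjusted threshold: Csn2 (2.44, standard error 0.87), Csn1s2a (2.00, standard error 0.84) and Csn1s1 (1.73, standard error 0.78). The share of all probes called in that fit is not given.

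In SPRET/EiJ at 4 weeks, where 2.2% of probes were called, no milk protein gene was. All 8 means were lower after LDIR, by a median of -2.34 against 0.04 over all probes. Sham mouse A was the only one of the 6 with Wap above background and the highest of the 6 in all 8 genes, which raised every sham mean. Csn1s1 was below background in all 3 LDIR mice and was lower after LDIR (limma adjusted p = 0.972). With the LDIR readings raised to the dimmest reading scored as above background, the fold was 4.63. The sham mean included sham mouse B, which was itself below background. Lalba differed by -1.34 (standard error 0.73, limma adjusted p = 0.972), with sham mice at 2.42, -0.32 and -0.30 and LDIR mice at -0.98, -0.71 and -0.53. The 2 groups did not overlap in Lalba, 1 of the 8 genes, as was so for 5.85% of all probes. Without sham mouse B, the lowest of the sham mice in Csn1s1, Csn2, Csn1s2a and Csn3, Csn1s1 (-6.08) and Csn2 (-5.94) were called lower, and without sham mouse C Glycam1 (-3.18) was.

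**Figure D4:**
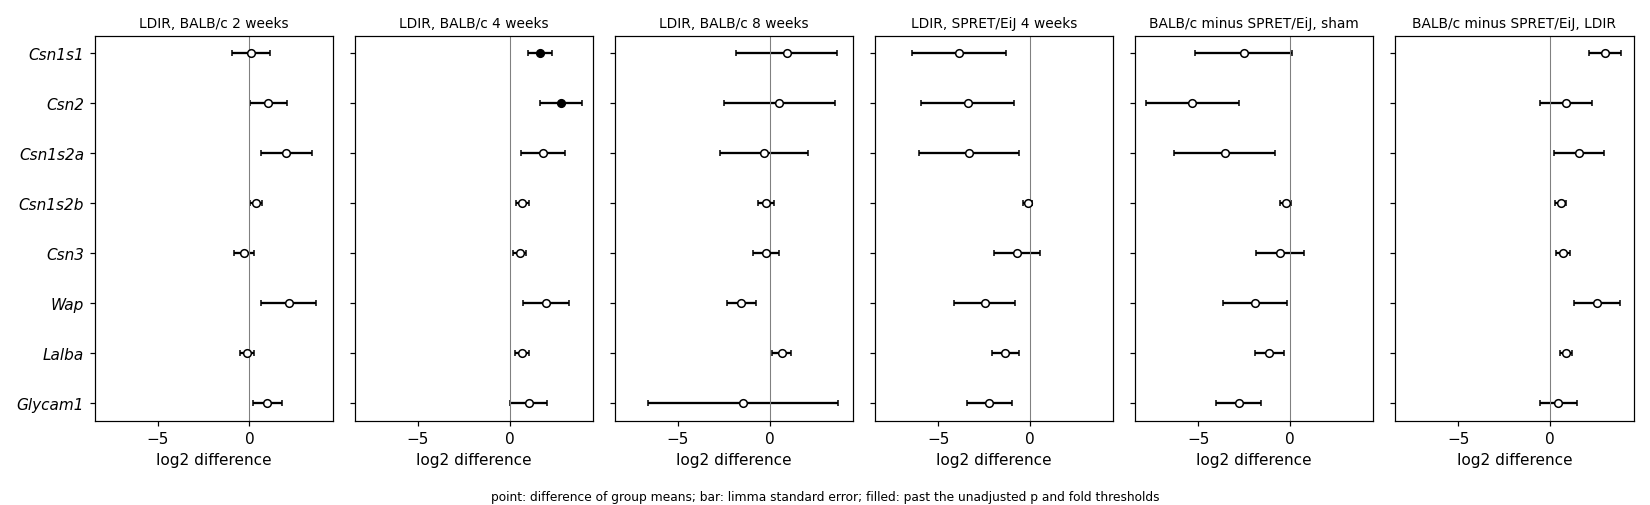
Differences of group means (log2, x axis) of the 8 milk protein genes (y axis) for LDIR minus sham in 4 groups and for BALB/c minus SPRET/EiJ at 4 weeks in sham and LDIR mice; bars are limma standard errors, and filled points passed the unadjusted thresholds. Only Csn1s1 (1.65) and Csn2 (2.82) in BALB/c at 4 weeks are filled, and the widest bar is that of Glycam1 at 8 weeks (standard error 5.18).

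The interaction of strain and LDIR at 4 weeks was tested on the same 12 arrays. There the LDIR difference was positive in BALB/c and negative in SPRET/EiJ for all 8 genes. The sign of every interaction term was therefore already fixed as positive, and adds nothing to those differences. Only Lalba passed, with a difference of differences of 2.00 (standard error 0.90, limma adjusted p = 0.957). Over all probes 3.55% passed and 2.0% passed with a positive sign, and none had an adjusted p under 0.05 (1979 unadjusted). The values of Csn2 (6.20, standard error 3.11) and Wap (4.46, standard error 2.30) were not called. The result again depended on single mice. Without SPRET/EiJ sham A none of the 8 passed, and Lalba was at 1.09, while without SPRET/EiJ sham B 6 of the 8 passed, Csn2 with 8.75. The share of all probes passing in these fits is not given, so the counts cannot be set against it. Lalba was still called when BALB/c sham B, BALB/c LDIR A, SPRET/EiJ sham B or SPRET/EiJ sham C was left out, in the last case with Glycam1 (4.22), and was lost without any of the other 8 mice. Of those 8, BALB/c LDIR B left Csn2 (7.65) called, BALB/c LDIR C and sham C left Csn1s2b (1.04 and 1.09), and the other 5 left none.

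Between strains the stricter threshold of p under 0.001 was used, and no gene passed it by its brightest probe. In sham mice 8.86% of all probes passed and 18.7% had an adjusted p under 0.05. None of the 8 genes had an unadjusted limma p under 0.05, against 31.9% of all probes. All 8 milk protein means were lower in BALB/c than in SPRET/EiJ (median -2.22, all probes -0.06). SPRET/EiJ sham A was again the highest of these mice, in every gene but Csn1s2b. Csn2 was below background in all 3 BALB/c mice (fitted difference -5.33, standard error 2.54, limma adjusted p = 0.213). With their readings raised to the dimmest reading scored as above background, the SPRET/EiJ mean was 11.6-fold higher. That mean included SPRET/EiJ sham B, which was itself below background.

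In LDIR mice, with 5.68% of probes passing and 11.1% at an adjusted p under 0.05, all 8 means were higher in BALB/c, the reverse of the sham mice. The median difference was 0.88, against -0.05 over all probes. An unadjusted limma p under 0.05 was reached by 2 of the 8 brightest probes, those of Csn1s1 and Lalba, a share close to the 25.1% of all probes. The smaller adjusted p was 0.0788, for Csn1s1. The 3 BALB/c mice, at -5.30, -4.03 and -2.76, were above background and the 3 SPRET/EiJ mice, at -7.97, -7.74 and -5.41, were below it. The groups did not overlap, as was so for 33.3% of all probes, and the BALB/c mean exceeded the other by at least 2.52-fold. The 2 strain comparisons share no mouse. Luminal markers were higher in BALB/c in both (median difference 1.71 in sham and 1.77 in LDIR mice), with none of 8 past the threshold. All LDIR SPRET/EiJ arrays lay on 1 slide and all LDIR BALB/c arrays of 4 weeks on another, so slide and strain cannot be told apart there. In sham mice no slide held both strains either, with BALB/c on the other 2 slides.

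The probes of a gene did not always give the same reading. For Csn3 the brightest and the middle probe went together between mice (r = 0.95 of deviations, n = 24 arrays) and neither passed the strain thresholds. The probe nearest to the 5′ end was below background on all 6 SPRET/EiJ arrays, at -5.60, -6.83 and -7.40 in sham and -7.98, -7.77 and -6.57 in LDIR mice. It was above background on 17 of 18 BALB/c arrays, at -5.59, -3.10 and -2.64 in sham and -3.92, -4.54 and -3.70 in LDIR mice of 4 weeks. In LDIR mice it passed, with a difference of 3.38 (standard error 0.44, limma adjusted p = 0.00562), at least 2.47-fold. In sham mice the difference was 2.84 (standard error 0.86, limma adjusted p = 0.0688), at least 3.58-fold. SPRET/EiJ sham A, with the highest Csn3 of all mice by the brightest probe (6.35) and by the middle one (-0.27), was below background by this probe. How well the probes match SPRET/EiJ transcripts is not analysed here.

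**Figure D5:**
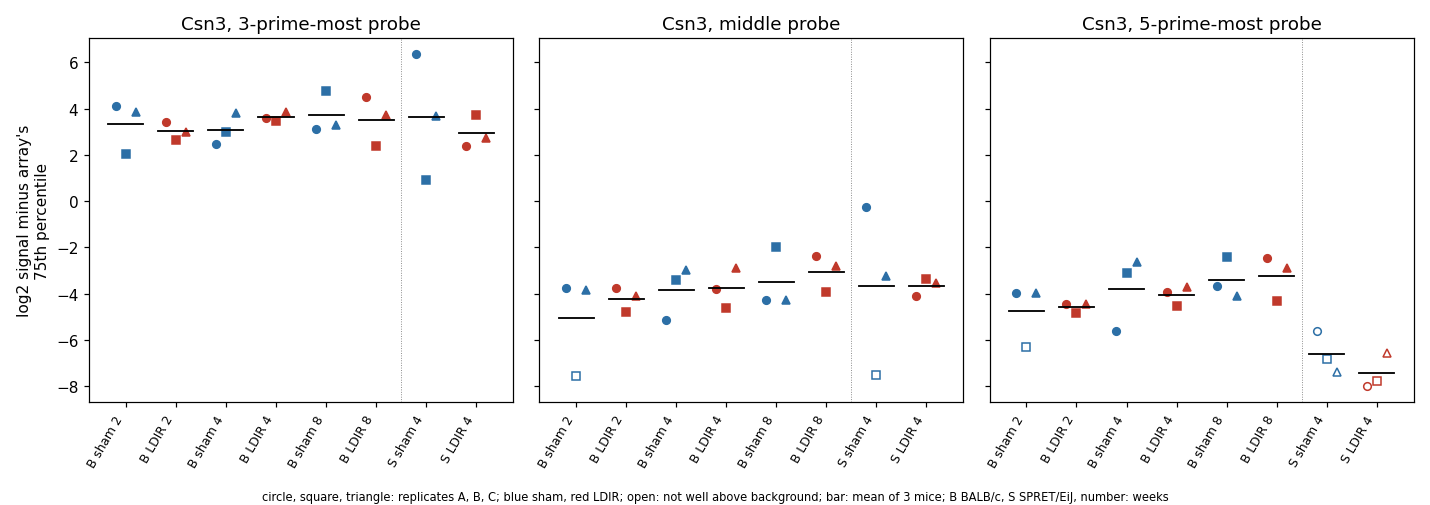
Level of Csn3 in each of the 24 mice by each of its 3 probes (log2 signal minus the array's 75th percentile, y axis; groups on the x axis; open symbols are not well above background, bars are means of 3 mice). The 6 SPRET/EiJ mice are all open by the probe nearest to the 5′ end (-7.98 to -5.60), although SPRET/EiJ sham A is the highest of all mice by the other 2 probes (6.35 and -0.27).

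The 2 Wap probes went together (r = 0.89) and gave the same top mouse, SPRET/EiJ sham A, at 0.38 and -0.07. The 2 Csn1s2b probes did not (r = 0.07), although they were above background on 24 and 21 arrays, so which of them follows the gene is uncertain. Untreated BALB/c mice were also compared between collection times. No milk protein gene passed between 4 and 2 weeks (3.04% of probes called; without sham 2 weeks B, Csn1s1 was called lower at 4 weeks, by -1.61) or between 8 and 4 weeks (13.8% called). In the latter the mean of Csn2 was higher at 8 weeks (fitted difference 5.12, standard error 2.64, limma adjusted p = 0.465), with 1 mouse at 3.84 and the others at -6.67 and -4.78. With the 4-week readings, all below background, raised to the dimmest reading scored as above it, the fold was 10.0. The 8-week mouse at -6.67 was itself below background. In the same comparison all 5 skeletal muscle genes were called higher (median 5.05) and 5 of 7 adipocyte genes lower (median -0.93), and the part of tissue makeup in the milk protein levels was not tested. Without sham 8 weeks A, 1 of the arrays with high lymphocyte markers, Csn1s1 (6.31) and Csn2 (7.18) were called higher; without B, Csn2 (1.93) alone was, and without C, Glycam1 (10.49).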

How the data were processed

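RNA of 24 mice was hybridised in 1 colour to Agilent arrays, 8 on each of 3 slides. The authors deposited scanner intensity, background-subtracted and detrended within the array per the file headers, and log2 values normalized to the 75th percentile with GeneSpring; of these, 99.984% lay within 0.01 of the values used here after probes and arrays were centred. Here the deposited intensity was turned into log2 values, from which each array's 75th percentile was subtracted. Outlier spots (3777 in all) were left out and 0 spots were saturated. Where a gene had several probes, the one brightest on average stands for it unless another is named.

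Groups followed the labels. Comparisons used limma (3.58.1, under R 4.3.3) and correlations scipy 1.17.1, on 3 arrays a group, a number that limits precision: with 3 mice a side, a two-sided exact permutation test cannot reach below 0.1. The fits were tested on simulated data. Members, lists and tests were chosen with earlier results of these data known. Alternatives were the authors' log2 values, normexp (offset 50) or quantile normalization, keeping outlier spots, dropping dim probes, replicate or slide as a block, 24 arrays in 1 fit, the mean of a gene's probes, the methods' t-test and each array left out; leaving out arrays with high lymphocyte markers was added later. Named list genes are those past the thresholds or with a high correlation. Of the 8 marker and 5 pathway lists, genes with no probe of their name were skipped.

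Replicate letters recur in all groups. At 2 weeks, deviations of LDIR and sham arrays of the same letter correlated at 0.14 (A), 0.44 (B) and 0.10 (C) over 34637 probes above background on all 6 arrays, though at 0.01, 0.14 and -0.03 over all probes; in no other comparison were all 3 above 0.1. These values are at most a weak sign that the letters mark pairs at 2 weeks. The differences given for that time came from a fit without pairing, and the replicate block left its count of called genes unchanged.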

Additional observations from a re-analysis of the deposited data

Results flagged for a closer look

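The difference after LDIR in Lalba at 4 weeks was larger in BALB/c than in SPRET/EiJ by 2.00 on the log2 scale (standard error 0.90, limma adjusted p = 0.957), which brought it here as an effect that differed between strains before adjustment. LDIR minus sham was 0.66 in BALB/c and -1.34 in SPRET/EiJ, and SPRET/EiJ sham A, at 2.42, was the highest of the 24 mice.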

How the results depend on the processing

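Counts of milk protein genes past the thresholds changed by 1 or 2 under several settings, and no direction of Csn1s1, Csn2 (LDIR in BALB/c at 4 weeks) or Lalba (interaction) reversed. For LDIR in BALB/c at 4 weeks the 2 calls became 0 with normexp, quantile normalization, 24 arrays in 1 fit, the methods' t-test or the slide block, and 1 with dim probes left out or with the replicate block. The interaction call became 0 with quantile normalization, the methods' t-test and the slide block; with the replicate block the count stayed 1 but the gene was Csn2, not Lalba. Counts of 0 became 1 for the strains in LDIR mice with the replicate block (Csn1s1), for LDIR at 2 weeks with normexp (Wap), at 8 weeks with the slide block (Lalba), in SPRET/EiJ with 24 arrays in 1 fit (Lalba), and for sham mice at 8 against 4 weeks with 24 arrays in 1 fit (Glycam1). The replicate block changed no other count. Leaving out each array in turn gave 0 to 4 genes for LDIR at 2 weeks, 0 to 2 at 4 weeks, 0 to 1 at 8 weeks, 0 to 3 over the 3 times, 0 to 2 in SPRET/EiJ, 0 to 1 for sham 4 against 2 weeks, 0 to 2 for 8 against 4 weeks, 0 to 6 for the interaction and 0 for both strain comparisons. Where that leaves 2 arrays in a group, the spread is borrowed from the other group. The share of all probes called in these fits is not given here, so their counts have no such share beside them. The median correlation of Csn2 with the other 7 genes was 0.59 and fell to 0.43 without the 2 mice farthest out, but was 0.66 without the 3 arrays high in lymphocyte markers; 7 genes stayed above the 90th percentile of spread under each scaling. Under quantile normalization 59 of 64 group levels moved by less than 1 SD. Signal near background limits Csn1s1, Csn2, Csn1s2a, Wap and Glycam1 most: with normexp the 4-week differences were 0.31 for Csn1s1 and 0.43 for Csn2.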
